A study of Homo sapiens with 17 samples.

Results

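The lysosomal gene set examined here holds 53 genes whose products work inside the lysosome, sit in its membrane or acidify it. The members were taken by symbol from a list of lysosomal enzymes, membrane proteins and proton pump subunits, each matched to 1 of the 58278 Ensembl identifiers counted in every library. That list was drawn up with earlier results of these data known, so counts over it are not independent of those results. There are 31 hydrolases (9 proteases, 15 enzymes that take apart glycans and 7 that act on lipids, nucleic acids or phosphate esters), 4 luminal cofactors, 8 membrane proteins, 9 subunits of the vacuolar ATPase (4 of the membrane sector V0 and 5 of the cytosolic sector V1) and the transcription factor TFEB. RNA was sequenced in 17 libraries of 2 experiments. All were made from MOLM13, a human cell line of acute myeloid leukaemia with the MLL-AF9 fusion. In the first, cells with a CRISPR knockout of HOXA9 (HOXA9_KO, n = 3) and cells with a CRISPR knockout of SAFB (SAFB_KO, n = 3) stood beside cells with a non-targeting guide (NT, n = 3). In the second, cells with a CRISPR knockout of MEIS1 (MEIS1_KO, n = 4) stood beside non-targeting cells of that experiment (NT_MEIS1ex, n = 4). HOXA9 and MEIS1 encode homeodomain proteins that MLL fusions keep switched on. SAFB encodes a scaffold protein of the nucleus with contacts to DNA and RNA. The labels name neither the guides nor whether a group came from a clone or a pool, and do not tell separate cultures from repeat libraries. P-values therefore measure only the spread between these libraries.

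Lysosomes take apart proteins, glycans, lipids and nucleic acids that reach them by endocytosis, phagocytosis and autophagy. Their hydrolases work at acid pH, which the vacuolar ATPase sets by pumping protons inward, and several need small activator proteins that lift lipid substrates out of membranes. Many lysosomal genes carry an E-box-like element near their start (the CLEAR motif, whose centre reads TCACGTGA), which is bound by TFEB, TFE3 and MITF when these factors leave the cytoplasm. Phagocytes such as monocytes and macrophages are known for a large lysosomal compartment.

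This centre was looked for in RefSeq promoter windows of GRCh38.p14, which run from 250 bases before to 50 bases after a gene's start and were at hand for 38 of the 53 members. TCACGTGA stood in windows of 8 members, ATP6V0D1, CLN3, CTSA, GAA, GALNS, LAMP1, MCOLN1 and PLD3. That is 21.1% of the members with a window, while 1.18% of all 27305 genes in the table held it. CACGTG, the plain E-box inside it, stood in 13 members and in 8.78% of all genes. Both motifs are their own reverse complement, so 1 search covers both strands. The stretches printed here show TCACGTGA in capitals, with up to 25 bases on either side before the gene's start, for members of each class that holds it. GAA, MCOLN1 and PLD3 hold it more than once before their start, and the copy nearest the start is shown. LAMP1 and CLN3 each hold a copy that spans the start, which is not shown. They lie at chr19:40348534-40348591 (PLD3, plus strand), chr17:80101524-80101580 (GAA, plus strand), chr19:7522584-7522623 (MCOLN1, plus strand), chr16:88857090-88857147 (GALNS, minus strand), chr20:45891284-45891334 (CTSA, plus strand), chr16:67481185-67481242 (ATP6V0D1, minus strand) and chr13:113297185-113297238 (LAMP1, plus strand).
PLD3: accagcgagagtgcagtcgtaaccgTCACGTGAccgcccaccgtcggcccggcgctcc
GAA: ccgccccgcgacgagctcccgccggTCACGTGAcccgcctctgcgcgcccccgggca
MCOLN1: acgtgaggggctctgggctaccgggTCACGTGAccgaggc
GALNS: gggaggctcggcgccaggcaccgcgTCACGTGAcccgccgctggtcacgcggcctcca
CTSA: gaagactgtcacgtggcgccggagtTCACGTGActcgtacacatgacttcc
ATP6V0D1: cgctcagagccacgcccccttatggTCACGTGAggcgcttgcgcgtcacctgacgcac
LAMP1: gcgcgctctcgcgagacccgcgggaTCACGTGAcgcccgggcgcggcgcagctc
The match shown begins 136 bases before the start of PLD3, 32 before that of GAA, 15 before that of MCOLN1 and 175 before that of GALNS. Start means the RefSeq start that the window was built on. Gene spans given further on are those of GENCODE 29, which can begin elsewhere. The stretches of PLD3 and CTSA lie within those spans, and the stretches of GAA and ATP6V0D1 run into them. A match of letters is a description of the sequence and does not show that a factor binds there.

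Reads assigned to genes numbered 30.7 to 67.8 M per library in the first experiment and 23.3 to 33.2 M in the second. Mitochondrial rRNA took 31.9 to 35.5% of them in HOXA9_KO libraries, 24.9 to 27.0% in SAFB_KO libraries and 22.5 to 28.4% in NT libraries, and at most 0.0094% in the MEIS1 experiment. Each targeted gene was lower in its own knockout. HOXA9 stood at 21.1 to 21.9 CPM (counts per M assigned reads, scaled by TMM) in HOXA9_KO libraries and 40.1 to 42.0 CPM in NT libraries. SAFB stood at 19.4 to 22.2 CPM in SAFB_KO libraries and 33.6 to 40.9 CPM in NT libraries. MEIS1 stood at 10.3 to 12.8 CPM in MEIS1_KO libraries and 31.7 to 33.4 CPM in NT_MEIS1ex libraries. MEIS1 was also lower in HOXA9_KO than in NT libraries, with a log2 fold change of -1.54 (edgeR adjusted p = 9.41e-29), and in SAFB_KO, with one of -0.31 (edgeR adjusted p = 3.20e-06). In MEIS1_KO against NT_MEIS1ex it was -1.54. A list of 6 markers of myeloid leukaemia cells (PTPRC, CD33, FLT3, MPO, SPI1 and CEBPA) summed to between 1254 and 1357 CPM in all groups. Within that sum FLT3 was lower in HOXA9_KO, at 315 to 326 CPM, against 669 to 685 CPM in NT libraries, and MPO was higher, at 90.2 to 97.1 CPM, against 15.2 to 18.2 CPM in NT libraries. The 10 erythroid and megakaryocyte markers summed to at most 3.96 CPM in any library. GYPB, PF4 and PPBP were at 0 in every library, while GP9 and ITGA2B were counted in all 17, and GP9 was lower in HOXA9_KO (edgeR adjusted p = 9.93e-06). The 12 lymphoid markers summed to 29.1 to 33.1 CPM in HOXA9_KO, 41.2 to 43.8 CPM in SAFB_KO and 31.3 to 32.8 CPM in NT libraries, and to 67.0 to 75.2 CPM in MEIS1_KO and 43.7 to 48.5 CPM in NT_MEIS1ex libraries. Of 6 tested by edgeR, 1 was higher and 3 lower in HOXA9_KO, against 27.6% and 29.9% of all genes tested. Their log2 fold changes ran from -3.23 to 0.39. In SAFB_KO 1 of the 6 was higher and 1 lower, and in MEIS1_KO 2 of 5 tested were higher. The part of these markers in the results on lysosomal genes was not tested.

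Lysosomal transcripts covered a wide range of levels in cells with a non-targeting guide. On a scale of counts per kilobase of exon, scaled to the nuclear protein-coding total of each library and given per M, the 53 members summed to 5005 ± 89.4 per M in NT libraries (SD, n = 3), and levels of single members ranged from 402 for GRN to 0.110 for LGMN. GRN (progranulin, a secreted and lysosomal glycoprotein), PSAP (prosaposin, the precursor of the saposins) at 361 and CD63 (a tetraspanin of late endosomes and lysosomes) at 349 led the order in both non-targeting groups. The spreads of PSAP and CD63 in NT libraries, 8.18 and 7.86 per M, are close to the gap between them. The next in order in NT libraries were the cysteine protease CTSS at 269.7, the carboxypeptidase CTSZ at 260.3 and the pump subunit ATP6V1B2 at 240.3 per M. The gaps between these neighbours were within or near the spread of CTSZ, 16.96. At the low end, SGSH stood at 0.558, ACP5 at 0.405 and LGMN at 0.110 per M in NT libraries. LGMN, an asparagine-specific protease, had 0 to 0.22 CPM over all 17 libraries, was 0 in each SAFB_KO library and was the only member too low to be tested.

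**Figure D1:**
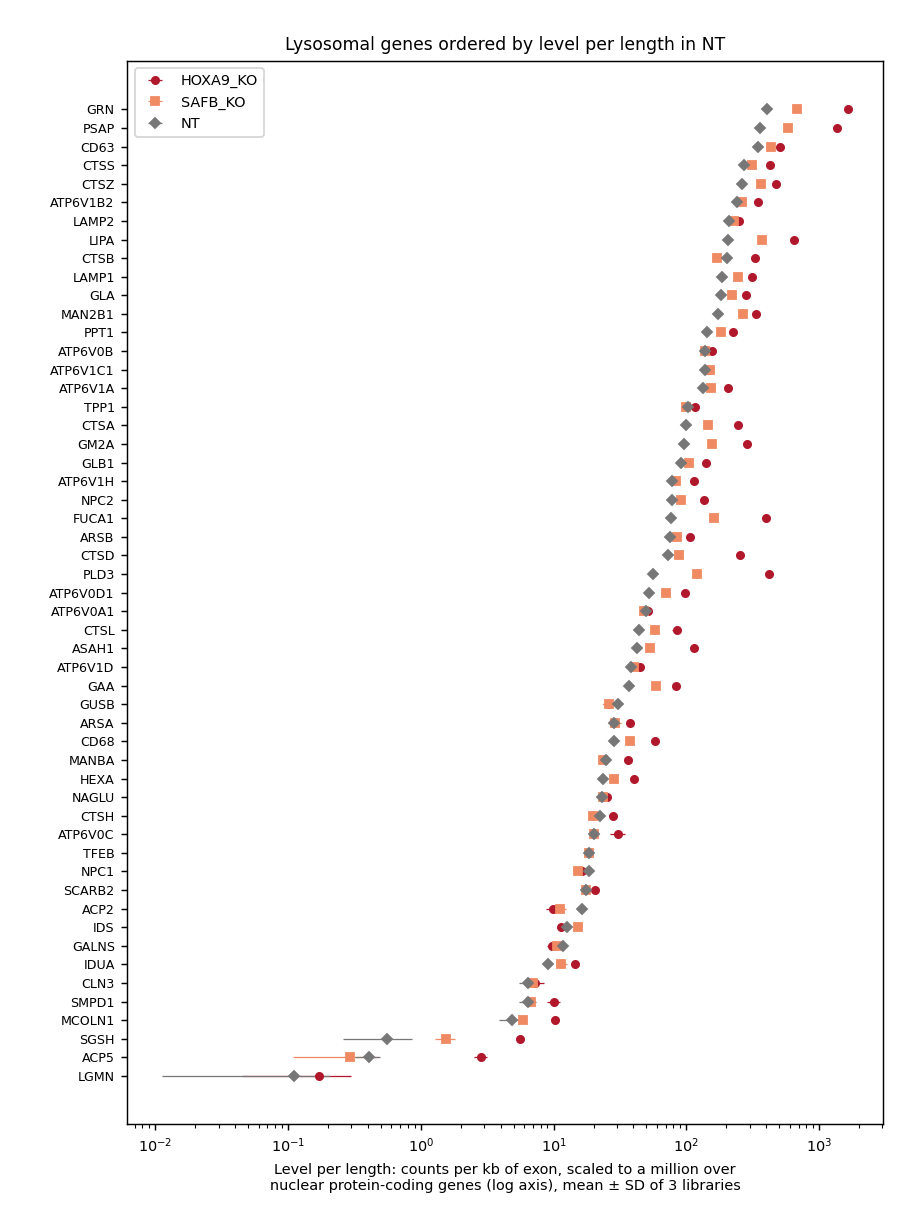
Level per length of the 53 lysosomal genes in HOXA9_KO, SAFB_KO and NT libraries (per kilobase of exon, per M over nuclear protein-coding genes, log axis; points are means, bars SDs, n = 3 each), ordered by the level in NT. GRN and PSAP stand at 1642 and 1372 per M in HOXA9_KO libraries, while members such as TFEB, IDS, GALNS, GUSB and NPC1 lie close together in the 3 groups.

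The summed level per length of the set was 10767 ± 101 per M in HOXA9_KO libraries, 6566 ± 39.9 in SAFB_KO libraries and 5005 ± 89.4 in NT libraries (SD, n = 3 each), and the 3 groups did not overlap. It was 7610 ± 70.0 per M in MEIS1_KO libraries and 6271 ± 109 in NT_MEIS1ex libraries (SD, n = 4 each), again without overlap. The sums were thus 2.15 times the NT value in HOXA9_KO, 1.31 times the NT value in SAFB_KO and 1.21 times the NT_MEIS1ex value in MEIS1_KO. GRN and PSAP alone carried 39.1%, 32.3% and 43.6% of these 3 differences. In bulk RNA, more cells of a type and more RNA per cell cannot be told apart.

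Gene by gene, most members of the set were higher in HOXA9_KO cells, across enzymes, cofactors, membrane proteins and pump subunits. Lysosomal genes outside the set, given further on, were less even. Of these, 16 of 24 enzymes, 8 of 12 pump subunits and 11 of 20 membrane proteins were higher, and 2, 3 and 6 were lower. Of the 52 members tested, 49 were higher, 1 was lower and 2 were not called in HOXA9_KO against NT by edgeR's quasi-likelihood test at a Benjamini-Hochberg adjusted p under 0.05, the p called edgeR adjusted p from here on. Over all 18876 genes tested in that comparison, 57.5% were called, 27.6% higher and 29.9% lower (5207 and 5640 genes, or 2861 and 9293 with libraries scaled to nuclear protein-coding counts). The median log2 fold change was 1.01 over the tested members and -0.07 over all tested genes, and 27 members were at least 2-fold higher. Most members are well expressed, and of the 6559 genes with a mean of at least 20 CPM, 48.4% were higher, with a median log2 fold change of 0.10. The groups did not overlap for 50 of the 52 members, against 62.6% of all genes tested. Under that other scaling the medians moved to 0.76 over the members and -0.32 over all genes, a gap of 1.08 on the log2 scale under both scalings, and IDS at -0.01 and NPC1 at -0.04 then lost their calls and changed sign.

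In SAFB_KO cells the same set was higher by a smaller amount. Of the 52 members, 43 were higher, 1 was lower and 8 were not called in SAFB_KO against NT, where 35.5% of all genes were called, 20.2% higher and 15.3% lower (3812 and 2886 genes, or 1712 and 5535 when scaled to nuclear protein-coding counts). The median log2 fold change was 0.40 over the members and -0.02 over all genes. Of the genes with a mean of at least 20 CPM, 42.4% were higher, with a median of 0.09. SGSH, PLD3, FUCA1 and LIPA, 4 members in all, were at least 2-fold higher. The groups did not overlap for 46 of the 52 members, against 46.3% of all genes. HOXA9_KO and SAFB_KO were set against the same 3 NT libraries, so the 2 lists of calls share their controls. Scaled to nuclear protein-coding counts, 33 members were higher and 4 lower in SAFB_KO, with a median of 0.26 over the members and -0.16 over all genes. CTSB at -0.19, GUSB at -0.19 and NPC1 at -0.22 were then lower by edgeR adjusted p, beside ACP2, and MANBA at -0.03 and ATP6V0A1 at -0.00176 changed sign.

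Set directly against each other, the knockouts differed in most members. In HOXA9_KO against SAFB_KO, 48 of the 52 members were higher, 1 was lower and 3 were not called. Over all genes 40.6% were called, 20.1% higher and 20.5% lower (3791 and 3877 genes, or 2449 and 5845 when scaled to nuclear protein-coding counts). NT levels are not compared in this contrast, but the NT libraries entered its filter, scaling factors and estimate of spread. Fitted on the HOXA9_KO and SAFB_KO libraries alone, it gave 49 members higher and 1 lower. The median log2 fold change was 0.61 over the members and -0.02 over all genes, and 11 members were at least 2-fold higher. The groups did not overlap for 49 of the 52 members, against 48.3% of all genes. The 1 member lower in HOXA9_KO than in SAFB_KO was IDS, iduronate sulfatase, with 20.5, 20.5 and 19.6 CPM in HOXA9_KO, 24.2, 22.3 and 24.6 CPM in SAFB_KO and 16.8, 17.3 and 17.1 CPM in NT libraries. Its 3 groups did not overlap and SAFB_KO was the highest (log2 fold change -0.23 ± 0.066 SE, edgeR adjusted p = 0.00436 for HOXA9_KO against SAFB_KO, lost without SAFB_KO replicate 3, where the edgeR adjusted p was 0.0504). ACP2, CLN3 and GALNS were the members not called. The calls of GUSB and TFEB in this contrast were lost in 4 and 7 of 13 alternative fits, whose settings are given further on.

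**Figure D2:**
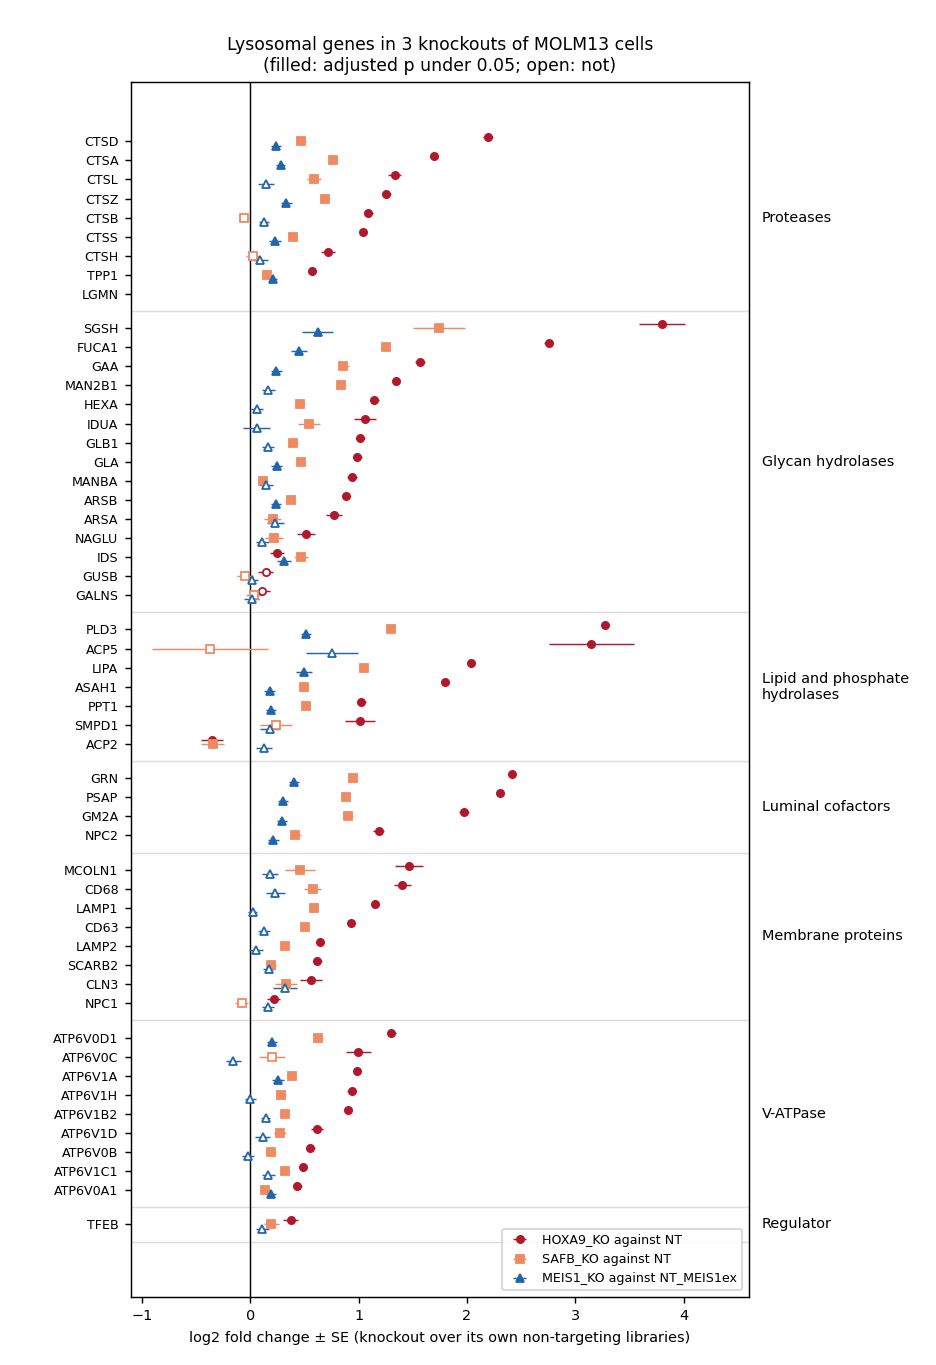
Log2 fold change ± SE of each lysosomal gene, by class, in HOXA9_KO against NT, SAFB_KO against NT (n = 3 each) and MEIS1_KO against NT_MEIS1ex (n = 4 each); filled symbols passed an adjusted p under 0.05. HOXA9_KO values lie furthest to the right for most genes, with SGSH at 3.80 and PLD3 at 3.27. ACP2 lies below 0 in HOXA9_KO and SAFB_KO, and under scaling to nuclear protein-coding counts IDS and NPC1 in HOXA9_KO and MANBA and ATP6V0A1 in SAFB_KO change sign.

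Lysosomal proteases cut proteins from within or trim them from an end. All 8 tested proteases were higher in HOXA9_KO than in NT libraries, with a median log2 fold change of 1.17. In SAFB_KO 6 of 8 were higher, with a median of 0.44. CTSD is the aspartic protease cathepsin D (chr11:1752752-1764573 of GRCh38, the build of all gene positions given). It had 152, 152 and 151 CPM in HOXA9_KO, 45.7, 46.5 and 46.0 CPM in SAFB_KO and 30.8, 33.0 and 36.2 CPM in NT libraries. The HOXA9_KO libraries stood far above the other 6, with SAFB_KO just above NT and no overlap (log2 fold change 2.19 ± 0.044 SE, edgeR adjusted p = 1.19e-39 in HOXA9_KO and log2 fold change 0.47 ± 0.046 SE, edgeR adjusted p = 4.07e-12 in SAFB_KO). CTSA is cathepsin A, a carboxypeptidase that also protects beta-galactosidase and neuraminidase (chr20:45890144-45898820). It had 268, 272 and 277 CPM in HOXA9_KO, 139.7, 143 and 146 CPM in SAFB_KO and 81.2, 81.5 and 90.3 CPM in NT libraries. SAFB_KO lay between the other groups without overlap (log2 fold change 1.69 ± 0.037 SE, edgeR adjusted p = 2.20e-38 in HOXA9_KO and log2 fold change 0.76 ± 0.037 SE, edgeR adjusted p = 6.09e-23 in SAFB_KO). CTSL is a cysteine protease (chr9:87725519-87731393). It had 37.6, 41.3 and 35.6 CPM in HOXA9_KO, 22.4, 22.6 and 23.4 CPM in SAFB_KO and 15.4, 15.5 and 14.5 CPM in NT libraries. Its groups were ordered without overlap (log2 fold change 1.33 ± 0.063 SE, edgeR adjusted p = 2.31e-24 in HOXA9_KO and log2 fold change 0.59 ± 0.064 SE, edgeR adjusted p = 1.23e-10 in SAFB_KO). CTSS, the protease that trims the invariant chain of MHC class II in antigen-presenting cells and the protease with the highest mean level per length in NT libraries, had 352, 332 and 342 CPM in HOXA9_KO, 219, 215 and 224 CPM in SAFB_KO and 168, 164 and 167 CPM in NT libraries. Its rise was smaller and even across libraries (log2 fold change 1.04 ± 0.032 SE, edgeR adjusted p = 7.42e-32 in HOXA9_KO and log2 fold change 0.40 ± 0.032 SE, edgeR adjusted p = 1.05e-14 in SAFB_KO). CTSB, also a cysteine protease, was higher in HOXA9_KO, at a log2 fold change of 1.09, and had -0.05 in SAFB_KO with an edgeR adjusted p of 0.313. The direct difference between the knockouts passed the test (log2 fold change 1.14 ± 0.040 SE, edgeR adjusted p = 1.44e-20). CTSH, a further cysteine protease, had log2 fold changes of 0.72 in HOXA9_KO and 0.02 in SAFB_KO, with a direct difference of 0.70 (edgeR adjusted p = 1.04e-12). Exons of CTSD overlap those of other genes on the same strand over 41.7% of their length, and those of TPP1, IDS, NAGLU, MANBA, MAN2B1, CD68, CLN3 and ATP6V0C do so over more than 5%. CTSL, LGMN, GUSB, IDS, FUCA1, GM2A and ATP6V0C have named pseudogenes. Counts of these members are less certain than those of members with neither. Exons of CTSA and PPT1 overlap opposite-strand genes over 28.5% and 23.4% of their length.

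Glycan hydrolases remove sugars and sulfates from glycoproteins, glycogen, glycolipids and glycosaminoglycans. Of these 15 enzymes 13 were higher in HOXA9_KO, with IDS losing its call and changing sign under scaling to nuclear protein-coding counts. In SAFB_KO 13 were also higher, with MANBA doing so there. The medians were 0.99 in HOXA9_KO and 0.46 in SAFB_KO. SGSH is the sulfamidase of heparan sulfate breakdown (chr17:80206716-80220923). It had 7.13, 6.75 and 7.68 CPM in HOXA9_KO, 1.93, 1.82 and 1.42 CPM in SAFB_KO and 0.298, 0.474 and 0.869 CPM in NT libraries. It had the largest log2 fold change of the set in both knockouts from a very low level, and its NT libraries varied most among themselves (log2 fold change 3.80 ± 0.21 SE, edgeR adjusted p = 2.84e-20 in HOXA9_KO and log2 fold change 1.74 ± 0.24 SE, edgeR adjusted p = 1.20e-07 in SAFB_KO). SLC26A11, which starts head to head with SGSH on the other strand, had 6.90, 6.10 and 6.51 CPM in HOXA9_KO, 0.529, 0.814 and 0.481 CPM in SAFB_KO and 0.149, 0.158 and 0.174 CPM in NT libraries. Exons of SGSH overlap opposite-strand genes over 2.40% of their length, and the strand setting of the counts is not known here. FUCA1 is the fucosidase of glycoprotein breakdown (chr1:23845077-23868294). It had 156, 150.2 and 159 CPM in HOXA9_KO, 56.2, 52.9 and 54.8 CPM in SAFB_KO and 22.3, 22.95 and 23.8 CPM in NT libraries. That is 6.75 times the NT level in HOXA9_KO and 2.38 times in SAFB_KO, with 3 well separated groups (log2 fold change 2.75 ± 0.043 SE, edgeR adjusted p = 2.28e-44 in HOXA9_KO and log2 fold change 1.25 ± 0.044 SE, edgeR adjusted p = 1.40e-28 in SAFB_KO). GAA is the acid glucosidase that breaks down glycogen (chr17:80101556-80119879). It had 80.7, 80.4 and 86.3 CPM in HOXA9_KO, 49.6, 49.6 and 52.3 CPM in SAFB_KO and 26.8, 27.1 and 29.9 CPM in NT libraries. The 3 groups were ordered in the same way (log2 fold change 1.57 ± 0.049 SE, edgeR adjusted p = 8.33e-32 in HOXA9_KO and log2 fold change 0.86 ± 0.049 SE, edgeR adjusted p = 5.33e-20 in SAFB_KO). GAA and GALNS both hold TCACGTGA in the stretches shown. GALNS, a sulfatase of keratan sulfate, had log2 fold changes of 0.11 in HOXA9_KO and 0.03 in SAFB_KO and was called in neither (edgeR adjusted p = 0.228 and 0.772). GLA, alpha-galactosidase A and the glycan hydrolase with the highest level per length in NT libraries, had 123, 118 and 121 CPM in HOXA9_KO, 81.7, 81.3 and 89.7 CPM in SAFB_KO and 59.8, 61.7 and 61.6 CPM in NT libraries. SAFB_KO again lay between, without overlap (log2 fold change 0.99 ± 0.040 SE, edgeR adjusted p = 6.25e-27 in HOXA9_KO and log2 fold change 0.47 ± 0.040 SE, edgeR adjusted p = 1.07e-13 in SAFB_KO). MAN2B1, the acid mannosidase that led this class in NT_MEIS1ex libraries, had log2 fold changes of 1.34 in HOXA9_KO and 0.84 in SAFB_KO. GUSB, beta-glucuronidase, a gene often used as a reference in RNA assays, had 18.3, 19.5 and 21.2 CPM in HOXA9_KO, 15.4, 17.8 and 18.5 CPM in SAFB_KO and 18.6, 17.6 and 17.4 CPM in NT libraries. Its groups overlapped, and it was not called against NT in HOXA9_KO (log2 fold change 0.14 ± 0.072 SE, edgeR adjusted p = 0.0902) or SAFB_KO (log2 fold change -0.05 ± 0.072 SE, edgeR adjusted p = 0.657). It was called higher in HOXA9_KO against SAFB_KO, a call lost in 4 of 13 alternative fits.

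The 7 hydrolases of lipids, nucleic acids and phosphate esters held large rises and the only fall of the set. In HOXA9_KO 6 of 7 were higher and 1 was lower, with a median log2 fold change of 1.80. In SAFB_KO 4 were higher and 1 was lower, with a median of 0.50. PLD3 is a lysosomal exonuclease of single-stranded nucleic acids (chr19:40348456-40380439). It had 417, 409 and 403 CPM in HOXA9_KO, 105, 101 and 108 CPM in SAFB_KO and 40.3, 42.2 and 45.2 CPM in NT libraries. It was 9.65 times the NT level in HOXA9_KO and 2.46 times in SAFB_KO, with replicates close together (log2 fold change 3.27 ± 0.039 SE, edgeR adjusted p = 2.29e-49 in HOXA9_KO and log2 fold change 1.30 ± 0.038 SE, edgeR adjusted p = 1.12e-31 in SAFB_KO). Its promoter stretch, shown earlier, carries TCACGTGA. ACP5 is the tartrate-resistant acid phosphatase of macrophages and osteoclasts (chr19:11574660-11579008). It had 1.66, 1.68 and 1.38 CPM in HOXA9_KO, 0.218, 0.0429 and 0.170 CPM in SAFB_KO and 0.189, 0.197 and 0.1303 CPM in NT libraries. It stayed a low transcript throughout, and was higher in HOXA9_KO (log2 fold change 3.15 ± 0.39 SE, edgeR adjusted p = 1.36e-09) and not called in SAFB_KO (log2 fold change -0.37 ± 0.54 SE, edgeR adjusted p = 0.631). The direct difference between the knockouts also passed (log2 fold change 3.52 ± 0.44 SE, edgeR adjusted p = 2.76e-09). LIPA is the acid lipase that frees cholesterol and fatty acids (chr10:89213569-89414557). It had 620.0, 582 and 597 CPM in HOXA9_KO, 307, 294 and 311 CPM in SAFB_KO and 144, 150.4 and 145 CPM in NT libraries. It was the most abundant of these 7 by level per length in NT libraries, though not in NT_MEIS1ex libraries, where PPT1 was, and its 3 groups were well apart (log2 fold change 2.03 ± 0.033 SE, edgeR adjusted p = 8.38e-44 in HOXA9_KO and log2 fold change 1.05 ± 0.033 SE, edgeR adjusted p = 7.47e-31 in SAFB_KO). ASAH1, acid ceramidase, had log2 fold changes of 1.80 in HOXA9_KO and 0.50 in SAFB_KO, and PPT1, which removes palmitate from proteins, had 1.03 in HOXA9_KO and 0.52 in SAFB_KO. SMPD1, acid sphingomyelinase, was higher in HOXA9_KO at a log2 fold change of 1.01 and not called in SAFB_KO at 0.24 (edgeR adjusted p = 0.212). ACP2, the lysosomal acid phosphatase (chr11:47239302-47248906), went the other way, with 5.73, 6.94 and 6.87 CPM in HOXA9_KO, 5.79, 6.77 and 7.05 CPM in SAFB_KO and 8.60, 8.13 and 8.28 CPM in NT libraries. All knockout libraries lay below all NT libraries (log2 fold change -0.35 ± 0.10 SE, edgeR adjusted p = 0.00312 in HOXA9_KO and log2 fold change -0.35 ± 0.10 SE, edgeR adjusted p = 0.00569 in SAFB_KO). The SAFB_KO call was lost without SAFB_KO replicate 1, at an edgeR adjusted p of 0.0628.

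The luminal cofactors carry no catalytic site of their own but serve the enzymes and lipid traffic of the lumen. All 4 were higher in HOXA9_KO, with a median log2 fold change of 2.14, and all 4 in SAFB_KO, with a median of 0.90. GRN (chr17:44345086-44353102) had 1150.4, 1138 and 1156 CPM in HOXA9_KO, 399, 424 and 428 CPM in SAFB_KO and 201, 218 and 227 CPM in NT libraries. Every HOXA9_KO library lay far above every SAFB_KO library, and those above every NT library (log2 fold change 2.41 ± 0.036 SE, edgeR adjusted p = 3.24e-40 in HOXA9_KO and log2 fold change 0.95 ± 0.035 SE, edgeR adjusted p = 3.85e-25 in SAFB_KO). PSAP (chr10:71816298-71851375) had 884, 814 and 835 CPM in HOXA9_KO, 326, 304 and 318 CPM in SAFB_KO and 166, 170.3 and 176 CPM in NT libraries. The same order held, with no overlap (log2 fold change 2.31 ± 0.034 SE, edgeR adjusted p = 2.29e-45 in HOXA9_KO and log2 fold change 0.89 ± 0.033 SE, edgeR adjusted p = 2.08e-27 in SAFB_KO). Progranulin and prosaposin are known to bind each other on the way to the lysosome. GM2A is the activator that presents a ganglioside to beta-hexosaminidase (chr5:151212150-151270440). It had 253, 236 and 241 CPM in HOXA9_KO, 112, 117 and 119.7 CPM in SAFB_KO and 56.4, 64.4 and 65.8 CPM in NT libraries. No group overlapped another here either (log2 fold change 1.97 ± 0.044 SE, edgeR adjusted p = 1.11e-27 in HOXA9_KO and log2 fold change 0.91 ± 0.044 SE, edgeR adjusted p = 1.72e-17 in SAFB_KO). NPC2, which binds cholesterol in the lumen and hands it to NPC1, had log2 fold changes of 1.18 in HOXA9_KO and 0.42 in SAFB_KO. Its membrane partner NPC1 had 0.21 in HOXA9_KO and -0.08 in SAFB_KO, not called in SAFB_KO (edgeR adjusted p = 0.319).

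Membrane proteins of the lysosome line its inner face, carry cholesterol and other solutes out, or let ions pass. All 8 were higher in HOXA9_KO, with a median log2 fold change of 0.78 and with NPC1 losing its call and changing sign under scaling to nuclear protein-coding counts. In SAFB_KO 7 of 8 were higher, with a median of 0.39. MCOLN1 is a cation channel that releases calcium from the lysosome (chr19:7522626-7534009). It had 7.52, 8.15 and 7.51 CPM in HOXA9_KO, 3.83, 3.73 and 3.99 CPM in SAFB_KO and 2.58, 3.45 and 2.39 CPM in NT libraries. Its groups did not overlap, the NT libraries being the most spread (log2 fold change 1.46 ± 0.13 SE, edgeR adjusted p = 3.62e-14 in HOXA9_KO and log2 fold change 0.46 ± 0.14 SE, edgeR adjusted p = 0.00717 in SAFB_KO). The SAFB_KO call was lost under scaling to nuclear protein-coding counts, at an edgeR adjusted p of 0.0650. CD68 is a glycoprotein used as a macrophage marker (chr17:7579467-7582113). It had 24.3, 22.9 and 25.3 CPM in HOXA9_KO, 13.8, 12.6 and 14.7 CPM in SAFB_KO and 9.02, 9.32 and 9.10 CPM in NT libraries. HOXA9_KO was highest and NT lowest in all libraries (log2 fold change 1.40 ± 0.075 SE, edgeR adjusted p = 3.90e-22 in HOXA9_KO and log2 fold change 0.58 ± 0.078 SE, edgeR adjusted p = 3.03e-08 in SAFB_KO). Exons of other genes on the same strand cover 81.7% of its exon length, so its counts are uncertain. LAMP1 is a main glycoprotein of the lysosomal membrane (chr13:113297241-113323672). It had 347, 339 and 343 CPM in HOXA9_KO, 227, 228 and 243 CPM in SAFB_KO and 150.5, 156 and 158 CPM in NT libraries. Replicates were close and the groups apart (log2 fold change 1.15 ± 0.033 SE, edgeR adjusted p = 3.35e-33 in HOXA9_KO and log2 fold change 0.59 ± 0.033 SE, edgeR adjusted p = 1.91e-20 in SAFB_KO). Its paralogue LAMP2 had log2 fold changes of 0.64 in HOXA9_KO and 0.32 in SAFB_KO. CD63 had 256, 247 and 260.3 CPM in HOXA9_KO, 198, 182 and 189 CPM in SAFB_KO and 132, 132 and 138 CPM in NT libraries. Its groups were nearer each other, still without overlap (log2 fold change 0.93 ± 0.035 SE, edgeR adjusted p = 1.80e-28 in HOXA9_KO and log2 fold change 0.50 ± 0.035 SE, edgeR adjusted p = 3.98e-17 in SAFB_KO). SCARB2, the carrier that brings glucocerebrosidase to lysosomes, had log2 fold changes of 0.62 in HOXA9_KO and 0.19 in SAFB_KO, and CLN3 had 0.56 in HOXA9_KO and 0.33 in SAFB_KO. Both SAFB_KO calls were lost under scaling to nuclear protein-coding counts.

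The vacuolar ATPase joins a membrane sector, V0, through which protons pass, to a cytosolic sector, V1, which splits ATP. All 9 subunits of the set were higher in HOXA9_KO, with medians of 0.78 over the 4 V0 subunits and 0.91 over the 5 V1 subunits. In SAFB_KO 8 of 9 were higher, with medians of 0.20 and 0.32 and with ATP6V0A1 losing its call and changing sign under scaling to nuclear protein-coding counts. ATP6V0D1 couples the sectors (chr16:67438014-67481237). It had 159.6, 147 and 154 CPM in HOXA9_KO, 92.7, 96.6 and 98.5 CPM in SAFB_KO and 58.5, 61.9 and 66.4 CPM in NT libraries. The 3 groups were clearly apart (log2 fold change 1.30 ± 0.041 SE, edgeR adjusted p = 1.09e-30 in HOXA9_KO and log2 fold change 0.63 ± 0.042 SE, edgeR adjusted p = 2.13e-17 in SAFB_KO). ATP6V0C is the proteolipid of the proton-carrying ring (chr16:2513870-2520218). It had 7.52, 9.15 and 9.41 CPM in HOXA9_KO, 5.29, 4.67 and 5.15 CPM in SAFB_KO and 3.94, 4.66 and 4.58 CPM in NT libraries. It was higher in HOXA9_KO (log2 fold change 0.997 ± 0.11 SE, edgeR adjusted p = 1.27e-10) and not called in SAFB_KO (log2 fold change 0.20 ± 0.12 SE, edgeR adjusted p = 0.198). Its counts are made uncertain by 72.1% exon overlap with same-strand genes and by named pseudogenes. ATP6V1A is the catalytic subunit (chr3:113747019-113812056). It had 211, 184 and 203 CPM in HOXA9_KO, 133, 127 and 133 CPM in SAFB_KO and 99.7, 101 and 101 CPM in NT libraries. HOXA9_KO libraries were the most spread, yet above all others (log2 fold change 0.99 ± 0.038 SE, edgeR adjusted p = 1.88e-27 in HOXA9_KO and log2 fold change 0.38 ± 0.038 SE, edgeR adjusted p = 1.19e-11 in SAFB_KO). ATP6V1B2, its partner in the ATP-splitting head and the pump subunit with the highest level per length in NT libraries, had 516, 509 and 514 CPM in HOXA9_KO, 348, 341 and 336 CPM in SAFB_KO and 276, 272 and 274 CPM in NT libraries. The groups were tight and apart (log2 fold change 0.91 ± 0.030 SE, edgeR adjusted p = 1.20e-30 in HOXA9_KO and log2 fold change 0.32 ± 0.030 SE, edgeR adjusted p = 1.42e-12 in SAFB_KO). Among the 9 subunits, log2 fold changes in HOXA9_KO ran from 0.44 for ATP6V0A1 and 0.49 for ATP6V1C1 to 1.30 for ATP6V0D1. HOXA9_KO exceeded SAFB_KO in all 9 subunits, by log2 fold changes from 0.17 for ATP6V1C1 to 0.80 for ATP6V0C. The ATP6V1C1 call was lost under scaling to nuclear protein-coding counts, at an edgeR adjusted p of 0.176.

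**Figure D3:**
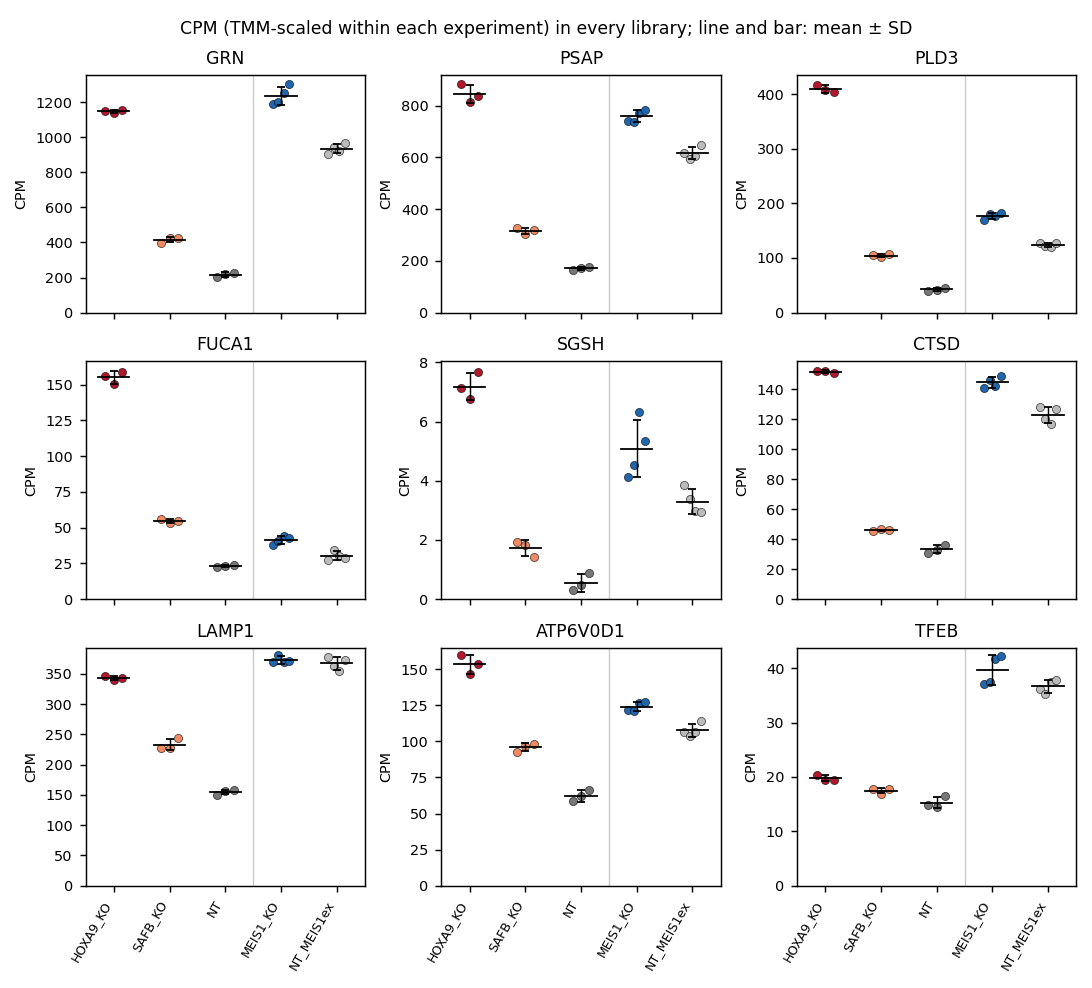
CPM of 9 lysosomal genes in every library (points), with mean ± SD per group, each experiment scaled by TMM on its own; the grey line parts the experiments, whose levels are not compared. GRN, PSAP, PLD3, FUCA1 and CTSD run in the order HOXA9_KO, SAFB_KO, NT without overlap, and in the MEIS1 experiment the knockout libraries lie above their own controls for GRN, PSAP and PLD3, while LAMP1 overlaps.

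TFEB, the factor that switches on lysosomal genes (chr6:41683978-41736259), was itself among the members with small changes. It had 20.4, 19.4 and 19.4 CPM in HOXA9_KO, 17.8, 16.9 and 17.7 CPM in SAFB_KO and 14.9, 14.5 and 16.4 CPM in NT libraries. The groups were ordered without overlap but close (log2 fold change 0.37 ± 0.070 SE, edgeR adjusted p = 8.51e-06 in HOXA9_KO and log2 fold change 0.20 ± 0.070 SE, edgeR adjusted p = 0.0241 in SAFB_KO). Under scaling to nuclear protein-coding counts neither call held, at edgeR adjusted p of 0.117 in HOXA9_KO and 0.544 in SAFB_KO. On the per-length scale TFEB averaged 18.4 ± 0.336 per M in HOXA9_KO, 18.6 ± 0.317 in SAFB_KO and 18.5 ± 1.16 in NT libraries (SD, n = 3 each). The SAFB_KO call was also lost without NT replicate 1, NT replicate 2, SAFB_KO replicate 1 or SAFB_KO replicate 3. Of 17 genes for its relatives and for the mTORC1 machinery that regulates TFEB, 14 were higher and 1 was lower in HOXA9_KO. That stands against 27.6% and 29.9% of all genes tested, and 48.4% of genes with a mean of at least 20 CPM were higher. The median log2 fold change of the 17 was 0.46. RRAGD, a small GTPase of that machinery, had the largest change, with 19.4, 18.4 and 18.0 CPM in HOXA9_KO, 8.12, 8.49 and 8.46 CPM in SAFB_KO and 7.11, 7.54 and 6.63 CPM in NT libraries. SAFB_KO lay just above NT and HOXA9_KO far above both (log2 fold change 1.39 ± 0.083 SE, edgeR adjusted p = 2.83e-20 in HOXA9_KO and log2 fold change 0.24 ± 0.088 SE, edgeR adjusted p = 0.0319 in SAFB_KO). TFE3, a close relative of TFEB, came next with 52.1, 51.0 and 49.2 CPM in HOXA9_KO, 31.8, 30.6 and 34.3 CPM in SAFB_KO and 23.1, 22.7 and 25.6 CPM in NT libraries. Its groups were ordered without overlap (log2 fold change 1.10 ± 0.056 SE, edgeR adjusted p = 6.21e-23 in HOXA9_KO and log2 fold change 0.44 ± 0.057 SE, edgeR adjusted p = 1.25e-08 in SAFB_KO). In SAFB_KO 10 of the 17 were higher and 0 lower, with a median of 0.13. There 20.2% of all genes tested were higher, and 42.4% of genes with a mean of at least 20 CPM. Members whose windows hold TCACGTGA, 8 in number, had a median log2 fold change of 1.38 in HOXA9_KO and 0.61 in SAFB_KO. The 30 members with a window without it had 1.004 and 0.41. In HOXA9_KO both spanned widely, from 0.11 to 3.27 with the letters and from -0.35 to 3.15 without.

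In MEIS1_KO cells, too, the calls among members of the set were rises, led by SGSH, PLD3 and LIPA. Of the 52 tested members, 22 were higher, none was lower and 30 were not called in MEIS1_KO against NT_MEIS1ex, where 8.81% of all 15744 tested genes were called, 4.97% higher and 3.84% lower. The median log2 fold change was 0.18 over the members and 0.00 over all genes, no member changed 2-fold, and the groups did not overlap for 29 members, against 15.7% of all genes. The count of higher members was 15 without MEIS1_KO replicate 3 and 27 without NT_MEIS1ex replicate 1, the ends of its range over single libraries left out. By class, 5 of 8 proteases, 6 of 15 glycan hydrolases, 4 of 7 lipid and phosphate hydrolases, all 4 cofactors, 3 of 9 pump subunits and 0 of 8 membrane proteins were higher. No member was lower by DESeq2 either, and 1 was lower at an unadjusted p under 0.05. Of the membrane proteins 0 were called by DESeq2 and 6 were higher at an unadjusted p under 0.05 by edgeR, with a median log2 fold change of 0.17 over the 8. PLD3 had 169, 180.0, 176 and 182 CPM in MEIS1_KO and 127, 122, 119 and 127 CPM in NT_MEIS1ex libraries. All knockout libraries lay above all controls (log2 fold change 0.51 ± 0.046 SE, edgeR adjusted p = 2.57e-06). SGSH had 4.14, 4.55, 6.32 and 5.34 CPM in MEIS1_KO and 3.85, 3.37, 2.98 and 2.96 CPM in NT_MEIS1ex libraries. Of these, 1 knockout library stood well above the rest (log2 fold change 0.62 ± 0.14 SE, edgeR adjusted p = 0.00990). Without that library, MEIS1_KO replicate 3, its log2 fold change was 0.50 with an edgeR adjusted p of 0.0554. LIPA had 309, 303, 299.6 and 289.9 CPM in MEIS1_KO and 176, 239.7, 221 and 214 CPM in NT_MEIS1ex libraries. NT_MEIS1ex replicate 1 was the lowest (log2 fold change 0.50 ± 0.072 SE, edgeR adjusted p = 4.68e-04). GRN had 1190.5, 1199, 1254 and 1303 CPM in MEIS1_KO and 906, 943, 924 and 965 CPM in NT_MEIS1ex libraries. The difference was small, without overlap, in the most abundant member (log2 fold change 0.40 ± 0.046 SE, edgeR adjusted p = 2.73e-05). PSAP had 739.6, 738, 773 and 783 CPM in MEIS1_KO and 617, 592, 606 and 648 CPM in NT_MEIS1ex libraries (log2 fold change 0.30 ± 0.045 SE, edgeR adjusted p = 4.09e-04). TFEB had 37.2, 37.4, 41.7 and 42.2 CPM in MEIS1_KO and 36.2, 35.2, 37.4 and 37.9 CPM in NT_MEIS1ex libraries. These groups overlapped and did not pass the test (log2 fold change 0.11 ± 0.060 SE, edgeR adjusted p = 0.283). ACP5 had the largest log2 fold change here, 0.75, but was not called (edgeR adjusted p = 0.0620).

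**Figure D4:**
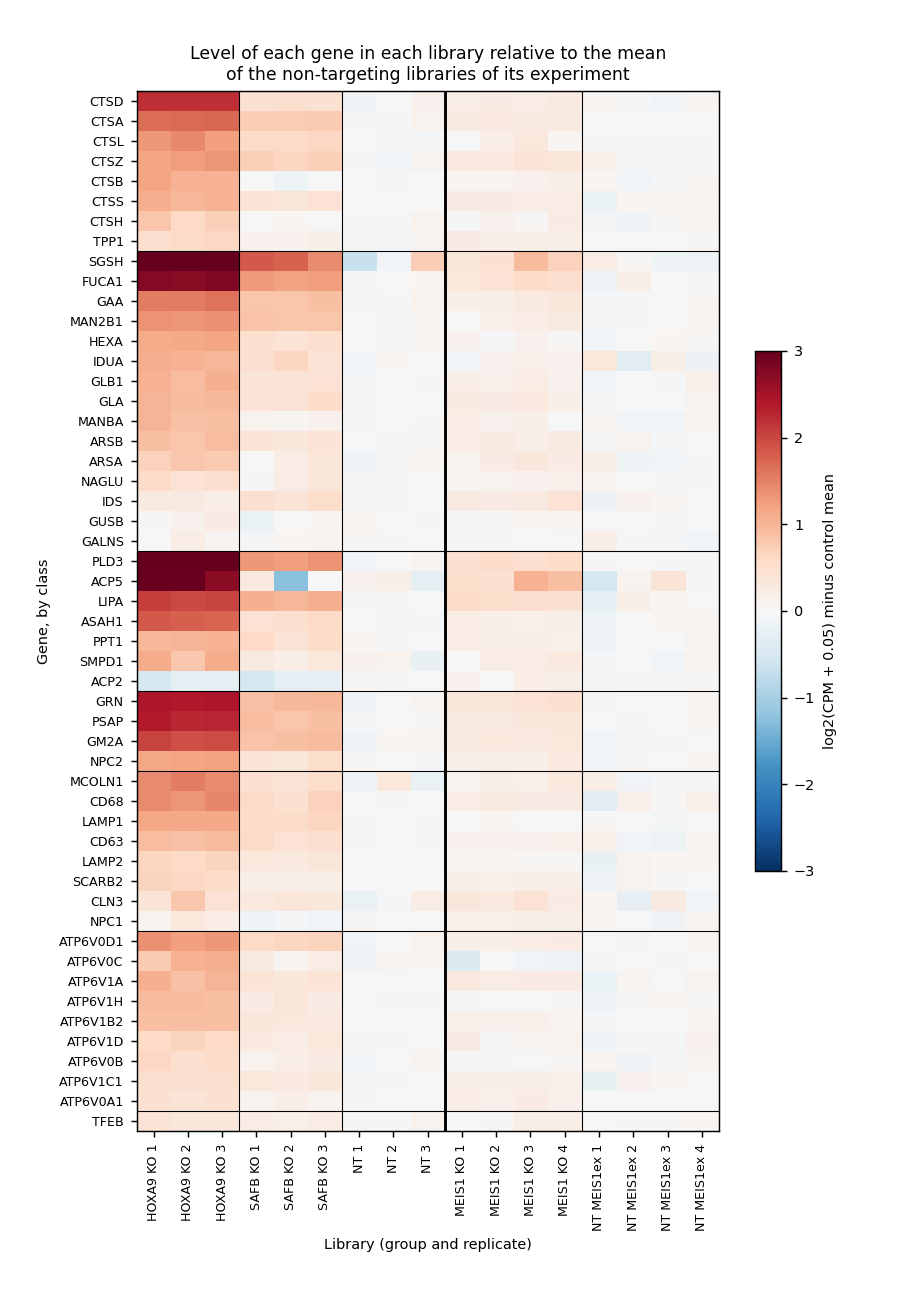
Each of the 52 tested lysosomal genes in each library, as log2(CPM + 0.05) minus the mean of the non-targeting libraries of its experiment, by class from proteases (top) to TFEB (bottom); colours end at 3 and -3. HOXA9_KO libraries are red in nearly every row and SAFB_KO and MEIS1_KO libraries paler, with ACP2 blue in HOXA9_KO and SAFB_KO. Single control libraries stand off in a few rows, such as NT replicate 3 for SGSH.

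Counts for lysosomal genes outside the set stand beside the shares of all genes given above, and of genes with a mean of at least 20 CPM, 48.4% of which were higher in HOXA9_KO, 42.4% in SAFB_KO and 6.14% in MEIS1_KO. Of 24 tested further lysosomal enzymes 16 were higher and 2 lower in HOXA9_KO, with a median log2 fold change of 0.62. In SAFB_KO 14 were higher and 1 was lower, and 8 were higher and 1 was lower in MEIS1_KO. PLBD2, a phospholipase-like lysosomal protein, had a log2 fold change of 1.82 and CTSV, a cysteine protease, one of -1.71 in HOXA9_KO. Of 12 tested further pump subunits and accessory proteins 8 were higher and 3 lower in HOXA9_KO, led by ATP6V0D2 at a log2 fold change of 1.67 (at most 1.29 CPM in any library) and ATP6V1F at 1.40. ATP6V0D2 had 39, 15 and 16 counts in HOXA9_KO and 14, 18 and 6 counts in NT libraries, with HOXA9_KO replicate 1 the highest. In SAFB_KO 7 of the 12 were higher and 2 lower, and 1 of 10 tested was higher in MEIS1_KO. Of 20 further membrane proteins 11 were higher and 6 lower in HOXA9_KO, with a median of 0.22, and 9 higher and 5 lower in SAFB_KO. The shares called higher, 55% and 45%, were near those of genes with at least 20 CPM. The shares called lower were 30% in HOXA9_KO and 25% in SAFB_KO, against 28.3% and 14.2% of those genes. LAMP3, which is also an interferon-induced gene, had 0.0994, 0 and 0 CPM in HOXA9_KO, 0.0311, 0.0214 and 0.0566 CPM in SAFB_KO and 1.11, 0.592 and 0.304 CPM in NT libraries, with log2 fold changes of -4.37 in HOXA9_KO and -4.17 in SAFB_KO. The next largest was SLC17A5, the sialic acid exporter, with a log2 fold change of 1.21 in HOXA9_KO. Of 15 genes that deliver enzymes to the lysosome 13 were higher and 2 lower in HOXA9_KO, with GNPTG at a log2 fold change of 0.91 and NAGPA at 0.82, both of the mannose phosphate tag, while GNPTAB, which makes the tag with GNPTG, was lower at -0.70. Of 15 autophagy genes 13 were higher and 1 lower in HOXA9_KO, with WIPI1 at a log2 fold change of 1.41 and ATG9A at 1.16. In MEIS1_KO 2 delivery genes, 1 autophagy gene, 3 further membrane proteins and 1 of the 17 relatives of TFEB and mTORC1 genes, TFEC at a log2 fold change of 0.47, were higher.

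Markers of monocytes and macrophages moved with the lysosomal genes. Of 15 such genes, all 12 tested were higher in HOXA9_KO and in SAFB_KO, and 10 of 11 tested in MEIS1_KO. Their summed level was 29752 to 32685 CPM in HOXA9_KO, 13052 to 14720 CPM in SAFB_KO and 4521 to 4634 CPM in NT libraries, and 7069 to 7460 CPM in MEIS1_KO and 3324 to 5019 CPM in NT_MEIS1ex libraries. Most of it came from lysozyme (LYZ), at 28045 to 30985 CPM in HOXA9_KO and 4099 to 4216 CPM in NT libraries. All 20 genes of an interferon-response list were lower in HOXA9_KO and in SAFB_KO, with a summed level of 310 to 327 CPM in HOXA9_KO, 480 to 525 CPM in SAFB_KO and 1726 to 2358 CPM in NT libraries. In MEIS1_KO 3 of the 20 were higher and 17 not called, with a median log2 fold change of 0.47 and a summed level of 697 to 986 CPM, against 482 to 659 CPM in NT_MEIS1ex libraries. Reads outside annotated genes were 8.65 to 9.27% of the total in HOXA9_KO, 10.6 to 12.7% in SAFB_KO and 16.4 to 18.1% in NT libraries. The part of these measures in the results on lysosomal genes was not tested.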

How the data were processed

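The authors deposited whole-number counts per gene for 17 libraries, 58278 Ensembl identifiers in each. Per the labels' protocols, total RNA was depleted of ribosomal RNA and made into directional libraries. Per the submitters' processing notes, the tools were STAR 2.7.10a, HTSeq 1.99.2, Trim Galore and bedtools, on hg38. Strand setting and annotation: not given in the sources used here. Of the files, the 8 deposited for the MEIS1 experiment hold the same kind of counts in tab-separated columns, recorded as unit other only because of their file type. Symbols, GRCh38 coordinates and exon lengths were taken from GENCODE 29, where 57895 identifiers were found.

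The members and gene lists were chosen with earlier results of these data known, so no count over them is independent of those results. edgeR 4.0.16 under R 4.3.3 fitted 9 libraries of the first experiment and 8 of the second separately, with filterByExpr (10 counts, 15 in total), TMM scaling, robust quasi-likelihood F tests and Benjamini-Hochberg adjustment over all tested genes at 0.05. SE is the log2 fold change divided by the root of F. The biological coefficient of variation was 4.63% in the first experiment and 6.75% in the second. CPM are TMM-scaled within an experiment and exclude lines that name no gene, which held 6.07 to 18.1% of reads as reads outside genes. Library depths were 23.3 to 67.8 M assigned reads, and for members of low count the counting error can be as large as the spread between libraries.

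Values in every library were given, per class, for the 3 called members with the largest changes in HOXA9_KO, the 2 largest each way in SAFB_KO and in MEIS1_KO, the member with the highest level per length, and TFEB; of the other lists, the 2 largest called changes. Sequences are RefSeq's (GRCh38.p14); a 10-letter form of the promoter motif was also planned and is not reported here. Other genes were named after their values were seen. Alternatives were DESeq2 1.42.0, RLE factors, dropping the filter, requiring 2 CPM on average, a term for replicate number, only the groups compared, scaling to nuclear protein-coding counts and leaving out each library. No 2 libraries of a group agreed within sampling noise. On simulated counts, the method recovered 50% of genes changed by 0.5 on the log2 scale and 72% of those changed by 1 for HOXA9_KO, 60% and 73% for SAFB_KO, 56% and 70% for the direct contrast, and 70% and 95% for MEIS1_KO. Each simulation changed 200 genes, far fewer than were called in the real counts, so these shares need not hold for the real comparisons.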

Additional observations from a re-analysis of the deposited data

Results flagged for a closer look

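In groups of 4, a library was looked at again when its gap to the nearest other library took most of the group's range. This held for 9 of 106 gene and group combinations in the MEIS1 experiment, where chance gives about 5%, and NT_MEIS1ex replicate 1 was the library in 5 of the 9. In that library CTSS stood at 144 CPM, against 173 to 177 CPM in the other 3, and ATP6V1H at 77.3 CPM, against 86.9 to 88.2 CPM. The same library was the highest for CTSZ at 132 CPM (others 114 to 116 CPM), GALNS at 27.5 CPM (others 22.8 to 23.1 CPM) and MCOLN1 at 20.4 CPM (others 16.6 to 16.9 CPM). NT_MEIS1ex replicate 4 was the highest for MAN2B1 at 386 CPM (others 357 to 361 CPM). Among knockout libraries, IDS was highest in MEIS1_KO replicate 4 at 48.3 CPM (others 42.6 to 43.2 CPM), IDUA was lowest in MEIS1_KO replicate 1 at 9.98 CPM (others 11.6 to 11.8 CPM) and LAMP1 was highest in MEIS1_KO replicate 2 at 382 CPM (others 369.6 to 371 CPM). Without NT_MEIS1ex replicate 1, 27 members were higher in MEIS1_KO, against 22 with it; CTSB, ARSA, CD63, MCOLN1 and NPC1 were then called as well.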

How the results depend on the processing

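With scaling to nuclear protein-coding counts, the median log2 fold change of the members was 0.76 in HOXA9_KO against NT, 0.26 in SAFB_KO against NT, 0.50 in HOXA9_KO against SAFB_KO and 0.21 in MEIS1_KO against NT_MEIS1ex. Over all genes it gave 2861 higher and 9293 lower in HOXA9_KO against NT, 1712 and 5535 in SAFB_KO against NT, and 2449 and 5845 in HOXA9_KO against SAFB_KO, and 4 members were lower in SAFB_KO. It turned the sign of IDS (-0.00658) and NPC1 (-0.0364) in HOXA9_KO and of MANBA (-0.0255) and ATP6V0A1 (-0.00176) in SAFB_KO. The gap between the member median and the median of all genes stayed at 1.08, 0.42, 0.63 and 0.18 in these 4 comparisons, in that order. A change of scaling moves the log2 fold changes of a comparison nearly together, so this gap cannot show which scaling is right. Requiring a mean of at least 2 CPM gave medians of 0.95 in HOXA9_KO and 0.34 in SAFB_KO, where 2 members were lower; the cause was not tested. With libraries left out in turn, the member median was 0.99 to 1.05 in HOXA9_KO, 0.59 to 0.65 in HOXA9_KO against SAFB_KO and 0.17 to 0.21 in MEIS1_KO. Members lower numbered 0 to 1 in SAFB_KO, with 0 without SAFB_KO replicate 1, and 0 to 1 in HOXA9_KO against SAFB_KO, with 0 without SAFB_KO replicate 3. In MEIS1_KO, 15 to 27 members were higher, and over all genes 487 to 944 were higher and 264 to 828 lower, the lowest without MEIS1_KO replicate 3 each time. In SAFB_KO, 38 to 43 members were higher, and the calls of MANBA, NAGLU, ARSA and TFEB were each lost without 1 of several libraries. In MEIS1_KO, ASAH1, PPT1, NPC2 and CTSS lost their calls without 1 of several libraries. GUSB was called higher in HOXA9_KO against NT with RLE factors, with only the groups compared and without HOXA9_KO replicate 1 (edgeR adjusted p = 0.0327, 0.0317 and 0.0361). CLN3 was called higher in HOXA9_KO against SAFB_KO without the filter, with only the groups compared and without HOXA9_KO replicate 1 (edgeR adjusted p = 0.0481, 0.0295 and 0.0291). Same-numbered libraries did not deviate together (correlations of -0.01 to 0.02 over 9 pairs in the first experiment and -0.15 to 0.09 over 4 pairs in the second), so the numbers were not taken as pairs. With the replicate number as a block, 49, 43, 48 and 21 members were higher in HOXA9_KO against NT, SAFB_KO against NT, HOXA9_KO against SAFB_KO and MEIS1_KO against NT_MEIS1ex, the block ending the call of ASAH1 in MEIS1_KO (edgeR adjusted p = 0.0630) and no other. DESeq2 called 49, 43, 48 and 24 members higher in the same order. Depth limits LGMN, ACP5 and SGSH, whose levels in NT libraries were under 1 CPM.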
